A study of Homo sapiens with 15 samples.

Results

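Complement genes and complement regulators were followed across 5 human cell lines. The members were C1R, C1S, C3, CFB, CFI, SERPING1, CD46, CD55 and CD59, taken by gene symbol from the deposited count table. All 9 were among its 15510 gene rows, and all 9 passed the filter on low counts. CFI passed through AKTmyr alone, the line with the highest level, so its place among the tested genes says nothing about the other lines. ARPE19 is an established line of human retinal pigment epithelium, the cell layer under the photoreceptors, and was used with no transfection. T53D4 is labelled as ARPE19 with hTERT, the catalytic subunit of telomerase, p53DD, a dominant negative p53 fragment, cyclin D1 and CDK4R24C, an inhibitor-resistant kinase. The RasV12, MekDD and AKTmyr lines are labelled with these same plasmids plus H-RasV12, MEK-DD or myr-HA-Akt, which are active forms of a RAS protein, of the MAP kinase kinase MEK and of the kinase AKT. By their labels RasV12 and AKTmyr are transformed and MekDD is weakly transformed, while T53D4, like the parent, is not. The constructs were carried on pBabe or pWZL retroviral plasmids, and there was 1 line for each, so the tests compare these lines and not independently made ones. Poly(A) RNA was sequenced in 3 libraries per line, each from its own thawed vial passaged 2 times.

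Complement is a cascade of blood and tissue proteases. C1r and C1s are the proteases that start its classical pathway, C3 is the component on which all pathways meet, and factor B is the protease of the alternative pathway that amplifies C3 cleavage. C1 inhibitor (SERPING1) and factor I (CFI) restrain it in solution, while CD46, CD55 and CD59 protect a cell's own membrane. Most circulating complement comes from the liver, but the retinal pigment epithelium makes several components itself, and variants of complement genes are known risk factors for age-related macular degeneration.

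A library held between 20.63 and 46.55 M reads on genes. The unit of level is CPM, the reads of a gene per M counted reads after trimmed-mean scaling, with the SD over 3 libraries. TERT reads were at a mean of 0.176 CPM in ARPE19 and 454 to 1240 in the derived lines. The lines with an oncogene each held their own: HRASV12 was at 310 ± 30.4 CPM (SD, n = 3) in RasV12 and 18.6 to 23.2 elsewhere, MEKDD was at 753 ± 229 in MekDD, and the AKT construct was at 840 ± 334 in AKTmyr and 104 to 118 elsewhere. For cyclin D1 and CDK4 the construct rows did not follow the labels of T53D4 and MekDD. They were at 146 and 92.2 CPM in the libraries labelled T53D4 and at 193 and 70.7 CPM in ARPE19, which has no construct, against 2350 and 2380 CPM in RasV12. MekDD, at 270 and 142 CPM, was also nearer to ARPE19 than to AKTmyr, which had 858 and 1010. Every direction given below for T53D4 or MekDD is therefore that of the libraries so labelled. The retinal pigment epithelium list (9 of 10 genes in the table) summed to between 849 and 2520 CPM, with KRT8 and MITF well expressed but RPE65, the visual cycle isomerase that defines the mature cell, at most 0.154 CPM in a library. Of the macrophage and microglia list, 5 of 7 genes were in the table, and they summed to 92 to 365 CPM in a library. PTPRC, which defines leukocytes, was at most 0.208 CPM in a library. Of the 3 tested, 2 were called higher and 1 lower in RasV12 than in T53D4, where 10.8% of all tested genes were called higher and 13.6% lower. RasV12 had 314 CPM of CD68, a lysosomal protein, against 142 for T53D4, and 15.1 CPM of CSF1R, a growth factor receptor, against 4.28. The hepatocyte markers ALB, APOA1, HP and APOB were not among the table's rows, while SERPINA1 was at 21.9 CPM in RasV12, 15.9 in MekDD and 6.45 in T53D4 and was called higher in both than in T53D4. The part of these cell type genes in the complement values was not tested.

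Differences between lines are log2 fold changes with their SE from edgeR's quasi-likelihood test over all 15 libraries. A gene is called when its Benjamini-Hochberg adjusted p over 13599 tested genes is under 0.05. This fit has no replicate block, and what a block changed is given in the last section. The lines share libraries between comparisons, so the 10 comparisons are not independent of each other. Each level is a mean over the cells of a culture, in which fewer expressing cells and less RNA per cell cannot be told apart.

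By mean, RasV12 was the line in which the initiating proteases and C1 inhibitor were lowest and CD59 was highest. For the proteases RasV12 was not called different from MekDD (adjusted p = 0.271 for C1R and 0.674 for C1S), and their libraries overlapped. Against T53D4, 2 of the 9 members were called higher in RasV12 (CD46 and CD59) and 4 were called lower (C1R, C1S, SERPING1 and CD55), where 10.8% of all tested genes were called higher and 13.6% lower. CFI, which passed the filter through AKTmyr, is left out of the counts that follow and is described on its own. Of the remaining 8 members, AKTmyr differed from T53D4 in CD55 alone, called lower, where 9.91% of all genes were called higher and 10.2% lower. No member was called between MekDD and T53D4, where 2.27% of all genes were called higher and 2.83% lower. At an unadjusted p under 0.05, edgeR gave 4 members in that comparison (C1R, C1S, C3 and CD55, all lower in MekDD), where 17.5% of all genes had such a p. DESeq2 called 2 lower, C3 and CD55, among 629 genes called lower. No member was called between T53D4 and ARPE19 by DESeq2 or by edgeR with no replicate block, where edgeR called 0.0368% of all genes higher and 0.118% lower. At an unadjusted p under 0.05 it gave 1 member, CD55, where 10.7% of all genes had such a p, so that count is at the background. With a replicate block, edgeR called CD55 higher in T53D4 (0.653, adjusted p = 0.0335), among 101 genes called higher. The median log2 difference of the 8 members was -0.56 for RasV12, -0.78 for MekDD and 0.20 for AKTmyr against T53D4, and -0.27 for T53D4 against ARPE19. The median of all tested genes lay between -0.01 and 0.01 in each of these comparisons.

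**Figure D1:**
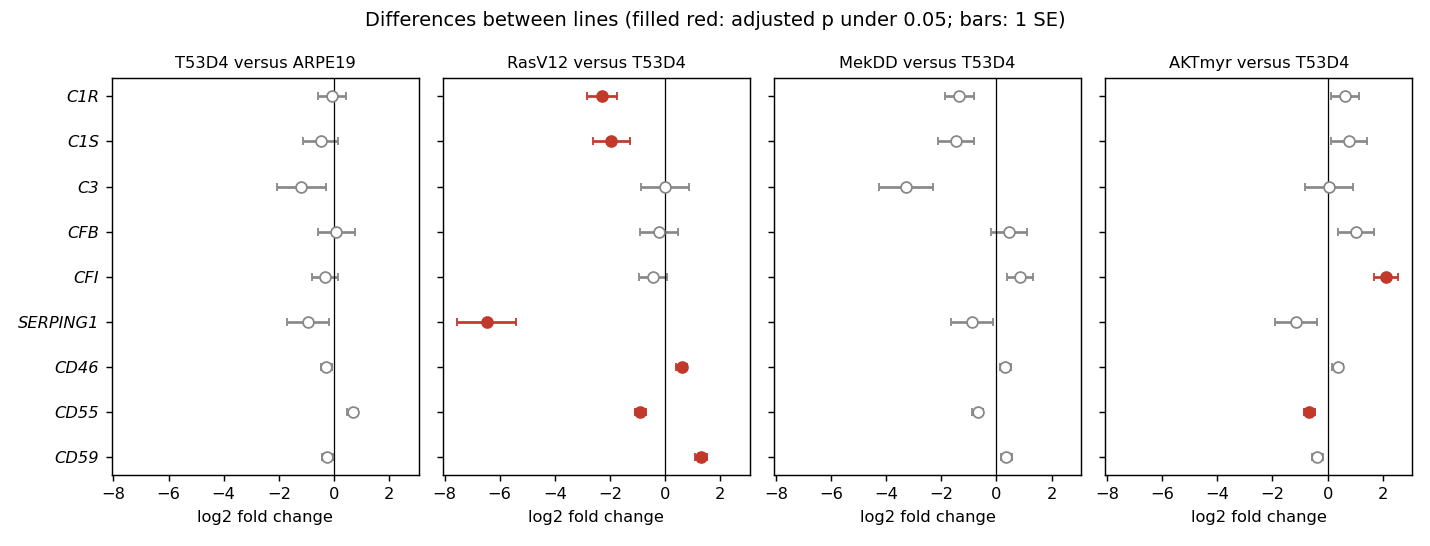
Log2 fold change (x axis) of each complement gene (y axis) in 4 comparisons, with bars of 1 SE; filled red points have an adjusted p under 0.05. RasV12 against T53D4 has 6 filled points, with SERPING1 farthest left at -6.48, and AKTmyr against T53D4 has 2, CD55 and CFI. CFI passed the filter on low counts through AKTmyr alone, so its filled point is a description only.

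Between the lines with an oncogene, RasV12 against MekDD had 2 members called higher (C3 and CD59) and 1 lower (SERPING1), where the shares of all genes were 7.17% and 8.33%. RasV12 against AKTmyr had 1 higher (CD59) and 3 lower (C1R, C1S and SERPING1), against 19.6% and 20.7%. MekDD against AKTmyr also had 1 higher (CD59) and 3 lower (C1R, C1S and C3), against 12.7% and 13.5%. Against ARPE19, RasV12 had 1 member called higher (CD59) and 3 lower (C1R, C1S and SERPING1), with 14.4% and 16.2% of all genes. MekDD had none higher and 1 lower (C3), with 4.61% and 6.27%. AKTmyr had none either way by edgeR, with 7.98% and 8.86%, and DESeq2 called 1 lower (CD59) among 1435 genes called lower. At an unadjusted p under 0.05 these comparisons had 4 and 2 of the 8 members, where 25.6% and 30.4% of all genes had such a p. Of 23 such calls over 80 results of the 8 members, 13 held under all 13 alternative settings or left-out libraries tried for each, and none turned direction.

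Replicate 3 of RasV12 stood apart from the other RasV12 libraries for C1R, C1S, C3 and CFB. Leaving it out changed the number of RasV12 members called lower from 4 to 5 against T53D4, from 1 to 4 against MekDD, from 4 to 6 against AKTmyr and from 3 to 4 against ARPE19, with CFI counted in both fits. Over all genes the number called lower fell in the same fits, from 1847 to 1602, 1133 to 851, 2821 to 2600 and 2205 to 1998. The number of members called higher changed from 2 to 1 against T53D4 and against MekDD, and that of all genes from 1466 to 1260 and from 975 to 742. The RasV12 differences that passed with or without this library are given both ways with each gene. In the same library several genes of the NF-kB and interferon lists were also higher than in RasV12 replicates 1 and 2. IL1B, an inflammatory cytokine, was at 64.8, 109 and 535 CPM in replicates 1, 2 and 3, and TNFAIP3, an NF-kB target, was at 5.77, 6.22 and 39.9 CPM. The NF-kB cofactor NFKBIZ was at 21.6, 14.9 and 67.5 CPM, and the interferon-induced GTPase GBP2 was at 0.767, 1.87 and 9.55 CPM. Their part in the complement values was not tested.

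**Figure D2:**
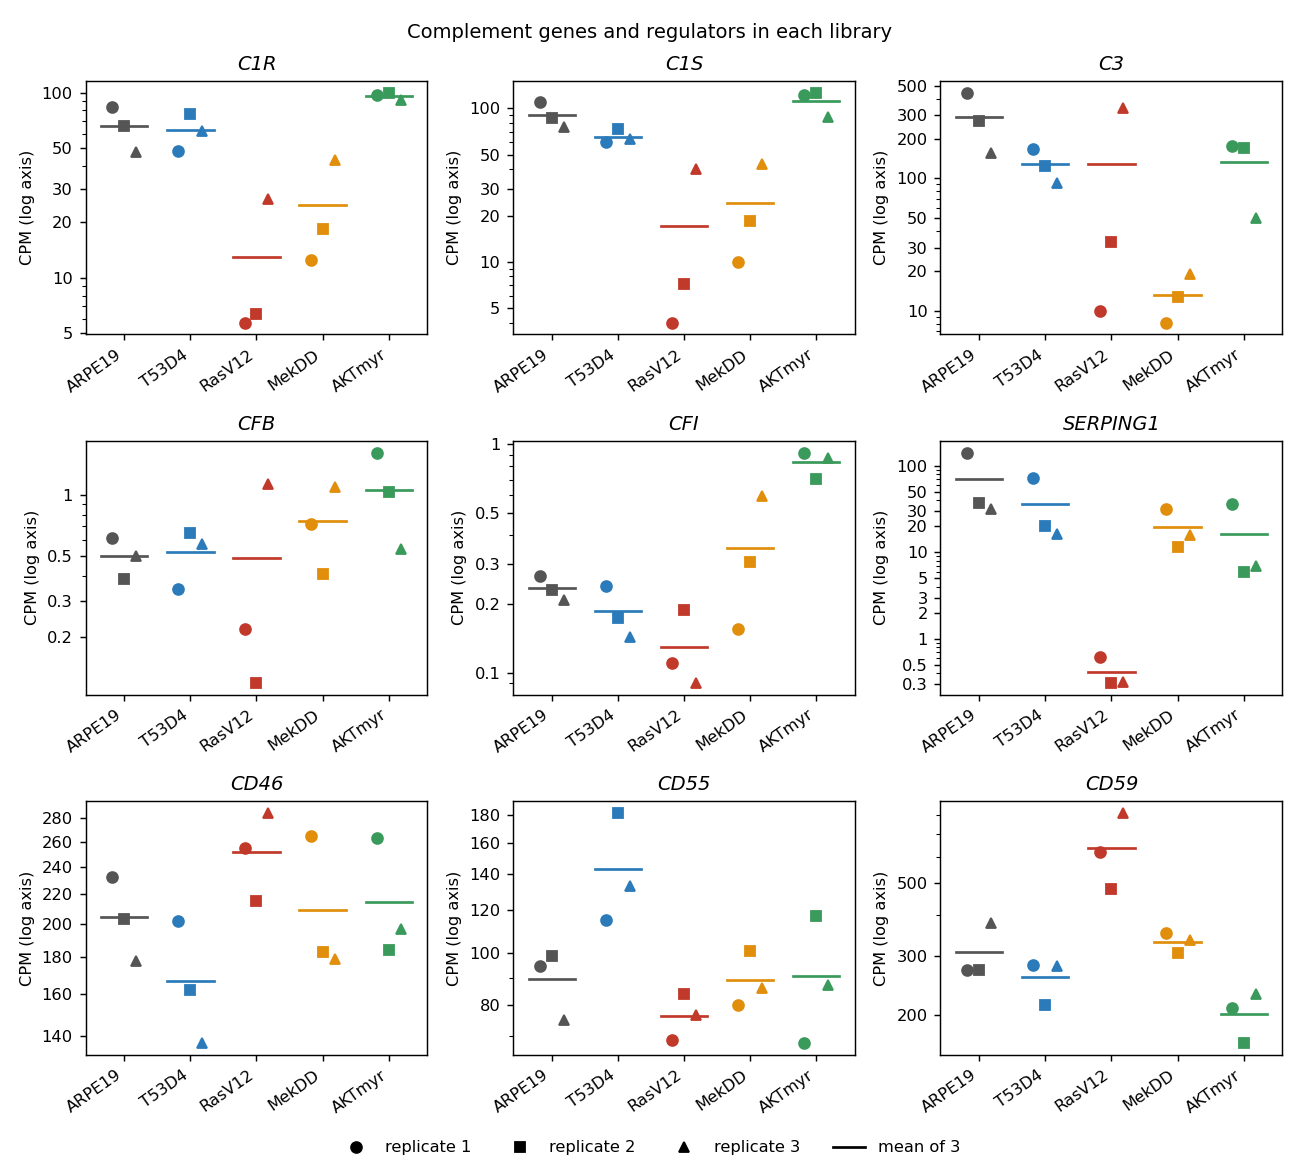
CPM on a log axis for the 9 genes in each of 15 libraries, grouped by line (x axis); symbols mark the replicate and the bar is the mean of 3. SERPING1 in RasV12 lies under 1 CPM in all 3 libraries, while C3 in RasV12 runs from 10.0 to 340 CPM.

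C1R and C1S encode the paired serine proteases of the C1 complex. Their genes lie close together on chromosome 12 (hg38), C1R (ENSG00000159403) at 12:7080214-7092540 on the minus strand and C1S (ENSG00000182326) at 12:6988259-7071032 on the plus strand. C1R was highest by mean at 96.9, 100 and 90.9 CPM in AKTmyr replicates 1, 2 and 3, followed by ARPE19 with 83.9, 65.6 and 47.6 and T53D4 with 48.6, 76.6 and 61.9. The lower means were those of MekDD, with 12.5, 18.2 and 43.1 CPM, and RasV12, with 5.69, 6.36 and 26.7. Every RasV12 and MekDD library was thus under every library of the other lines. C1S, which C1r cleaves and activates, followed the same order. It was highest by mean at 122, 127 and 88.1 CPM in the AKTmyr libraries, followed by ARPE19 with 111, 86.4 and 76 and T53D4 with 60, 73.5 and 63.1. The lower means were those of MekDD, with 10, 18.3 and 43.6 CPM, and RasV12, with 3.98, 7.14 and 40.1. The RasV12 libraries did not overlap those of T53D4, ARPE19 or AKTmyr for either gene, and they overlapped those of MekDD for both.

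RasV12 had less C1R than T53D4 by a log2 difference of -2.29 (SE 0.54, adjusted p = 0.00717), which is 4.88-fold, and this call held when each library was left out. It was also lower than in ARPE19 (-2.36, SE 0.55, adjusted p = 0.00504) and AKTmyr (-2.91, SE 0.56, adjusted p = 0.00107). Without RasV12 replicate 3 the 3 differences were -3.37, -3.44 and -3.99. For C1S the differences were -1.96 against T53D4 (SE 0.67, adjusted p = 0.0457), -2.43 against ARPE19 (SE 0.67, adjusted p = 0.0143) and -2.74 against AKTmyr (SE 0.68, adjusted p = 0.00595), and without RasV12 replicate 3 they were -3.55, -4.02 and -4.32. The C1S call against T53D4 did not hold without T53D4 replicate 1, 2 or 3 or RasV12 replicate 1 or 2, where the difference lay between -2.01 and -1.48 and the adjusted p between 0.0708 and 0.154, nor with the 2 lines fitted alone (-1.96, adjusted p = 0.0886). The C1S call against ARPE19 was lost without RasV12 replicate 2 (-2.06, adjusted p = 0.0596, where the other 5 left-out libraries and 7 other settings kept it).

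MekDD also had less of both proteases than AKTmyr, by -1.97 for C1R (SE 0.53, adjusted p = 0.0155) and -2.24 for C1S (SE 0.67, adjusted p = 0.0246). Leaving out MekDD replicate 1 or 2 raised the adjusted p to 0.061 and 0.0684 for C1R and to 0.0863 and 0.0915 for C1S, and leaving out AKTmyr replicate 1 or 2 raised that of C1S to 0.0573 and 0.058. Against T53D4 the MekDD differences were -1.35 for C1R (SE 0.52, adjusted p = 0.185) and -1.46 for C1S (SE 0.65, adjusted p = 0.261), neither of which passed. Against ARPE19 they were -1.42 and -1.93 (adjusted p = 0.101 and 0.0773), and both passed without MekDD replicate 3, at -2.09 and -2.68 (adjusted p = 0.0328 and 0.0387). Both also passed with a replicate block, at -1.64 and -2.19 (adjusted p = 0.0318 and 0.0246). With the 2 lines fitted alone, C1S passed at -1.925 (adjusted p = 0.0492). RasV12 and MekDD themselves differed by -0.94 in C1R and -0.50 in C1S (adjusted p = 0.271 and 0.674). Without RasV12 replicate 3 those values became -2.02 and -2.09 (adjusted p = 0.00994 and 0.0157). AKTmyr had the highest mean of both genes, but its differences of 0.62 and 0.78 from T53D4 did not pass (adjusted p = 0.42 and 0.415). That of C1S passed with the 2 lines fitted alone (0.798, adjusted p = 0.0267).

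The paired proteases moved together from library to library. C1R spanned a 17.6-fold range and C1S a 32.0-fold range over the 15 libraries, yet the ratio of C1R to C1S per kilobase of exon ran only from 0.698 to 1.59, with a median of 0.992. Pearson's r of their log2 CPM was 0.984 over the 15 libraries, which share lines and are not independent points. C1R shares 672 bases of exon with C1RL, a C1r-like protease gene on the same strand, and C1S shares 229 with EMG1. Whether counting used strand is not given in the sources used here, so reads in such shared stretches are uncertain. C1RL itself was at 19.3, 28.5 and 40.8 CPM in RasV12 and 47.1, 51.4 and 39.6 in T53D4, and those libraries overlapped.

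C3, the central component (ENSG00000125730, chromosome 19:6677704-6730562, minus strand), was highest by mean at 445, 272 and 155 CPM in the ARPE19 libraries, followed by AKTmyr with 177, 169 and 50.2. T53D4, with 168, 123 and 92 CPM, and RasV12, with 10, 33.2 and 340, had the same mean of 128 CPM, and MekDD was lowest with 8.1, 12.6 and 19.1. All 3 MekDD libraries lay under every library of ARPE19, T53D4 and AKTmyr. The RasV12 libraries covered nearly the whole range of the other lines, with 1 of them above every T53D4 library and 2 below. MekDD had less C3 than ARPE19 by -4.46 (SE 1.02, adjusted p = 0.014) and less than AKTmyr by -3.32 (SE 0.97, adjusted p = 0.0228), which are 21.9-fold and 9.98-fold. The first call did not hold without MekDD replicate 1 or 2 (-4.20 and -4.42, adjusted p = 0.0651 and 0.0655), nor the second without MekDD replicate 1 or 2 or AKTmyr replicate 1 or 2 (-3.29 to -3.06, adjusted p = 0.0539 to 0.0806). Against T53D4 the difference of -3.27 (SE 0.97) did not pass (adjusted p = 0.0722). It passed in DESeq2 (adjusted p = 0.013) and when the 2 lines were fitted alone (0.00309), and over the left-out libraries its adjusted p ran from 0.103 to 0.245.

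For C3 in RasV12, replicate 3 decided the result. With all libraries the differences were -0.01 from T53D4 (SE 0.88, adjusted p = 0.998), -0.06 from AKTmyr (SE 0.88, adjusted p = 0.967), -1.19 from ARPE19 (SE 0.89, adjusted p = 0.339) and 3.26 from MekDD (SE 0.97, adjusted p = 0.0352). Without RasV12 replicate 3 they were -2.56 (adjusted p = 0.0161), -2.61 (0.00891), -3.74 (0.0022) and 0.71 (0.508). Thus C3 was called higher in RasV12 than in MekDD only with that library, and called lower than in T53D4, AKTmyr and ARPE19 only without it. The call against MekDD was also lost without MekDD replicate 1, 2 or 3 (3.01, 3.22 and 3.61, adjusted p = 0.112, 0.106 and 0.0767) and with the 2 lines fitted alone (adjusted p = 0.096).

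CFB, the alternative pathway protease (ENSG00000243649, chromosome 6:31945650-31952084, plus strand), was low in every library, at 5 to 60 reads. It was highest by mean at 1.62, 1.03 and 0.542 CPM in the AKTmyr libraries, followed by MekDD with 0.717, 0.407 and 1.1 and T53D4 with 0.342, 0.651 and 0.571. Lower means were seen in ARPE19, with 0.615, 0.384 and 0.5 CPM, and RasV12, with 0.219, 0.118 and 1.13. The libraries of the lines overlapped, and no difference passed in any of the 10 comparisons. The difference farthest from 0 was RasV12 against AKTmyr at -1.25 (SE 0.66, adjusted p = 0.15). Without RasV12 replicate 3 this became -2.70 (adjusted p = 0.00441), and the difference from MekDD moved from -0.68 (adjusted p = 0.57) to -2.13 (adjusted p = 0.041), while those from T53D4 and ARPE19, at -1.67 and -1.59, did not pass (adjusted p = 0.0763 and 0.0756). The annotation places 2249 of the 4997 exon bases of CFB also in AL645922.1, a gene model on the same strand that is not among the table's rows, and 23 in C2, so CFB counts are uncertain.

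SERPING1, which encodes C1 inhibitor, the serpin that inactivates C1r and C1s, showed the widest separation of any member between lines. The gene (ENSG00000149131) lies at chromosome 11:57597387-57614853 on the plus strand. ARPE19 had 143, 36.9 and 31.9 CPM, T53D4 had 73.5, 20.2 and 16.3, MekDD had 32.1, 11.5 and 15.8, and AKTmyr had 36.6, 5.90 and 7.04. In RasV12 it was at 0.621, 0.307 and 0.315 CPM, from 17, 13 and 7 reads, so every RasV12 library was far under every other one. RasV12 was lower than T53D4 by -6.48 (SE 1.08, adjusted p = 0.000622), than ARPE19 by -7.42 (SE 1.10, adjusted p = 0.000238), than MekDD by -5.59 (SE 1.06, adjusted p = 0.00268) and than AKTmyr by -5.33 (SE 1.06, adjusted p = 0.00137). These are folds of 89.2, 172, 48.2 and 40.3. All of these calls held in every alternative tried, with RasV12 replicate 3 left out too (-6.36, -7.31, -5.47 and -5.22). RasV12 replicate 3, which was high for C3, C1R, C1S and CFB, was not high for SERPING1.

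Replicate 1 was the highest library in each of the 5 lines, and within a line the highest library exceeded the lowest by 2.02-fold to 6.21-fold. None of the SERPING1 differences among ARPE19, T53D4, MekDD and AKTmyr passed in this fit, which has no replicate block. The difference farthest from 0, AKTmyr against ARPE19 at -2.09 (SE 0.79, adjusted p = 0.0878), became -3.45 (adjusted p = 0.0184) without AKTmyr replicate 1. COL1A1, a collagen gene of the fibroblast list named after its values were seen, was also highest in replicate 1 of each line, with 335 CPM for AKTmyr, 112 for T53D4, 33.2 for MekDD, 28.9 for ARPE19 and 9.45 for RasV12. The other replicates of COL1A1 lay between 1.67 and 54.1 CPM. PDGFRB, a receptor on the same list, did not have that pattern in every line, at 24.9, 43.4 and 54.7 CPM in MekDD and 28.2, 23.0 and 35.6 in RasV12, where replicate 3 was highest. The fibroblast list summed to 26.5 to 568 CPM over the libraries, and 4 of its 6 genes (COL1A2, PDGFRA, DCN and LUM) had a mean under 1 CPM in every line. Its part in the SERPING1 values was not tested.

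CFI encodes factor I, the protease that degrades C3b and C4b with the help of cofactors such as CD46. The gene (ENSG00000205403) lies at chromosome 4:109740694-109802179 on the minus strand. It was at 0.919, 0.705 and 0.875 CPM in AKTmyr, from 34, 32 and 21 reads. Elsewhere 2 to 14 reads were counted in a library. These gave 0.156, 0.305 and 0.592 CPM in MekDD and 0.264, 0.231 and 0.208 in ARPE19. T53D4 had 0.240, 0.174 and 0.143 CPM, and RasV12 had 0.110, 0.189 and 0.0901. All AKTmyr libraries were above all others. Because CFI was admitted to the tests by its AKTmyr level, its differences from AKTmyr are a description and support nothing. AKTmyr was above T53D4 by 2.13 (SE 0.44), which is 4.37-fold, and above ARPE19 by 1.80 (SE 0.42). RasV12 was below AKTmyr by -2.57 (SE 0.46; -2.40 without RasV12 replicate 3) and MekDD by -1.28 (SE 0.41). In the fit with no filter on low counts, where no line admits a gene, these values were 2.14, 1.82, -2.57 and -1.28 (adjusted p = 0.00594, 0.0124, 0.000776 and 0.0412). They rest on 2 to 34 reads in a library and are imprecise.

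The difference of AKTmyr from MekDD had an adjusted p of 0.0544 in DESeq2 and of 0.0539 to 0.131 without MekDD replicate 1 or 2 or any AKTmyr replicate. That from ARPE19 had 0.0502 without ARPE19 replicate 2. These fits kept the filter on low counts, so these values are a description too. RasV12 against MekDD, at -1.29 (adjusted p = 0.0952), passed without MekDD replicate 1 (-1.65, adjusted p = 0.033). Of the 4875 exon bases of CFI, 1562 are shared with AC126283.2, a gene model on the same strand that is not among the table's rows. CFI counts are therefore uncertain, and a level under 1 CPM was the highest seen.

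CD59 blocks the membrane attack complex at its last step, CD46 is a cofactor for factor I, and CD55 speeds the decay of C3 convertases. These 3 membrane regulators were well expressed in every library, between 68.0 and 814 CPM. Their genes are CD46 (ENSG00000117335, chromosome 1:207752057-207795513, plus strand), CD55 (ENSG00000196352, chromosome 1:207321376-207386804, plus strand) and CD59 (ENSG00000085063, chromosome 11:33703010-33736491, minus strand). CD59 shares 629 of its 10569 exon bases with AL049629.2, a gene model on the same strand.

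RefSeq promoter sequences (GRCh38.p14) matched 6 of the 9 members, namely C1R, CFB, CFI, CD46, CD55 and CD59. A window is printed only where few of its bases lie in an annotated untranslated region, which were 0 for CD46 and 12 for CD59. The C1R, CFI, CFB and CD55 windows held 95, 180, 250 and 250 such bases and are not printed. Each window below is the 250 bases before the RefSeq start, 5′ to 3′ on the gene's own strand, and capitals mark a match to a searched motif on either strand. The CD46 window is chr1:207751788-207752037 on the plus strand, and its capitals are matches to SP1 (GGGCGG). The CD59 window is chr11:33736480-33736729 on the minus strand, and its capitals are a match to STAT (TTCNNNGAA).
CD46: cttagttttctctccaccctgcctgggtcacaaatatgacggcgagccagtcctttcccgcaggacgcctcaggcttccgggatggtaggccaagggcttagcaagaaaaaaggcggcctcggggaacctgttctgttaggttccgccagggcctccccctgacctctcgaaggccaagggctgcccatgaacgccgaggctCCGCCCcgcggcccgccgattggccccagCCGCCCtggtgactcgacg
CD59: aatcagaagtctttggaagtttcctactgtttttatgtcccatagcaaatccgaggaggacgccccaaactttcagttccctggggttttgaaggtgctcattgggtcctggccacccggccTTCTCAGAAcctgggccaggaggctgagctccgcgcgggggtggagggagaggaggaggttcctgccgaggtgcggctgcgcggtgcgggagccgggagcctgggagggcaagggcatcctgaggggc
The CD46 window held 2 SP1 matches, 48 and 19 bases before the start, and the CD59 window held 1 STAT match 128 bases before it. The starts are RefSeq's, and in the deposited annotation all 250 bases of the CD55 and CFB windows lie inside the gene, downstream of its first base, as do 180 for CFI, 95 for C1R and 12 for CD59. The CD55 window held 1 SP1 match 46 bases before the RefSeq start. The CFB window held 1 STAT match at 92 bases and 2 matches to NF-kB (GGGA, any 4 bases, CC) at 185 and 111 bases before it. No window held the AP-1 letters (TGANTCA) or the ETS letters (CCGGAAGT), and none of the searched motifs was in the C1R or CFI window. Of 35116 promoter windows of this length, 42.6% held SP1, 6.6% STAT, 22.6% NF-kB, 6.6% AP-1 and 3.4% ETS. The searched letters do not overlap one another's matches in these windows, and a match describes the sequence only.

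CD59 was highest by mean at 619, 478 and 814 CPM in the RasV12 libraries, followed by MekDD with 352, 307 and 336 and ARPE19 with 273, 273 and 379. Next came T53D4, with 283, 214 and 281 CPM, and AKTmyr, with 210, 164 and 230. Every RasV12 library was above every other library. RasV12 was higher than T53D4 by 1.30 (SE 0.21, adjusted p = 0.000445), a 2.46-fold difference, higher than ARPE19 by 1.05 (SE 0.21, adjusted p = 0.00177), than MekDD by 0.94 (SE 0.20, adjusted p = 0.00648) and than AKTmyr by 1.66 (SE 0.21, adjusted p = 4.65e-05). Without RasV12 replicate 3 these were 1.08, 0.83, 0.73 and 1.45. All of these calls held in every alternative tried. AKTmyr was the low end of the order. MekDD was higher than AKTmyr by 0.72 (SE 0.20, adjusted p = 0.0198), a call lost without MekDD replicate 1 (0.68, adjusted p = 0.0587) or AKTmyr replicate 2 (0.59, adjusted p = 0.0802). The difference of AKTmyr from ARPE19 was -0.62 (SE 0.20, adjusted p = 0.0538), with no overlap between their libraries, and DESeq2 called it (adjusted p = 0.0268). In edgeR its adjusted p was 0.0513 to 0.198 over the left-out libraries. With a replicate block, edgeR called AKTmyr lower than ARPE19 (-0.617, adjusted p = 0.00316) and lower than T53D4 (-0.371, adjusted p = 0.0362).

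CD46 was highest by mean at 255, 215 and 285 CPM in the RasV12 libraries, followed by AKTmyr with 263, 184 and 197 and MekDD with 265, 183 and 179. Below them were ARPE19, with 232, 203 and 178 CPM, and T53D4, with 202, 162 and 137. The RasV12 libraries lay above those of T53D4 and overlapped those of the remaining lines. RasV12 was higher than T53D4 by 0.59 (SE 0.20, adjusted p = 0.044), a 1.51-fold difference, and no other comparison passed. The call did not hold without T53D4 replicate 2 or 3 or RasV12 replicate 1 or 3, where the difference was 0.57, 0.47, 0.59 and 0.49 and the adjusted p ran from 0.0896 to 0.157.

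CD55 was highest by mean at 115, 182 and 133 CPM in the T53D4 libraries, followed by AKTmyr with 68, 117 and 87 and ARPE19 with 94.5, 98.7 and 75.2. The lower means were those of MekDD, with 80.1, 101 and 86 CPM, and RasV12, with 68.8, 83.9 and 76.6. T53D4 was the high line, and its libraries overlapped only those of AKTmyr. RasV12 was lower than T53D4 by -0.91 (SE 0.20, adjusted p = 0.00509), also -0.91 without RasV12 replicate 3, which held in every alternative tried. AKTmyr was lower by -0.66 (SE 0.20, adjusted p = 0.0349), which was lost without T53D4 replicate 2 or 3 or AKTmyr replicate 1 or 3 (-0.71 to -0.45, adjusted p = 0.0602 to 0.155) and with the 2 lines alone (adjusted p = 0.124). MekDD differed from T53D4 by -0.68 (SE 0.20, adjusted p = 0.0724), which passed in DESeq2 (adjusted p = 0.0225) and without T53D4 replicate 1 (-0.82, adjusted p = 0.0491), the range over the left-out libraries reaching 0.3. It also passed with a replicate block (-0.668, adjusted p = 0.00575). T53D4 itself differed from ARPE19 by 0.68 (SE 0.20, adjusted p = 0.244), which passed with a replicate block (0.653, adjusted p = 0.0335). No difference in CD55 passed among ARPE19, RasV12, MekDD and AKTmyr.

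The order of the lines by mean level was not the same for each gene. In the order from highest to lowest, neighbouring lines had an adjusted p under 0.05 at only 1 step or none. That step was RasV12 above MekDD for CD59, T53D4 above AKTmyr for CD55, and AKTmyr above RasV12 for SERPING1. At the CD55 step the libraries overlapped, and the call was lost in 5 of 13 alternatives. For CFI the step was AKTmyr above MekDD, lost in 7 of 13 alternatives. CFI was admitted to the tests by its AKTmyr level, so its step is a description and supports nothing. For C1R, C1S, CFB and CD46 no neighbouring lines were called different. For C3 the lowest line, MekDD, lay below T53D4 and RasV12 with their equal means. It was called different from RasV12 but not from T53D4. The RasV12 and MekDD libraries overlapped for C3, and that call was lost in 5 of 13 alternatives.

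Compared per kilobase of exon (RPKM), C3 was the most abundant member in ARPE19 at 35 ± 17.6 (SD, n = 3), followed by CD59 at 29.2 ± 5.83. CD59 led in T53D4 at 24.5 ± 3.74, in RasV12 at 60.3 ± 16.0 and in MekDD at 31.3 ± 2.14. CD46 led in AKTmyr at 24.7 ± 4.81. The RPKM of C1S, C1R and SERPING1 in RasV12 were 2.64, 2.23 and 0.115. CFB and CFI were the lowest members in every line, from 0.0266 to 0.213 RPKM.

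The secreted members varied more between replicates of a line than the membrane regulators did. The SD of log2 CPM within lines was 1.33 for C3, 1.07 for SERPING1, 0.93 for C1S, 0.81 for CFB and 0.73 for C1R. These are percentiles 99.5, 98.6, 97.5, 95.9 and 94.2 of the 13599 tested genes, whose median SD was 0.24. CFI was at 0.43. CD46, CD55 and CD59 were at 0.26, 0.27 and 0.27, close to that median. This spread sets the SE of the C3 and SERPING1 differences, which was 0.76 to 1.10, against 0.20 to 0.21 for the membrane regulators.

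**Figure D3:**
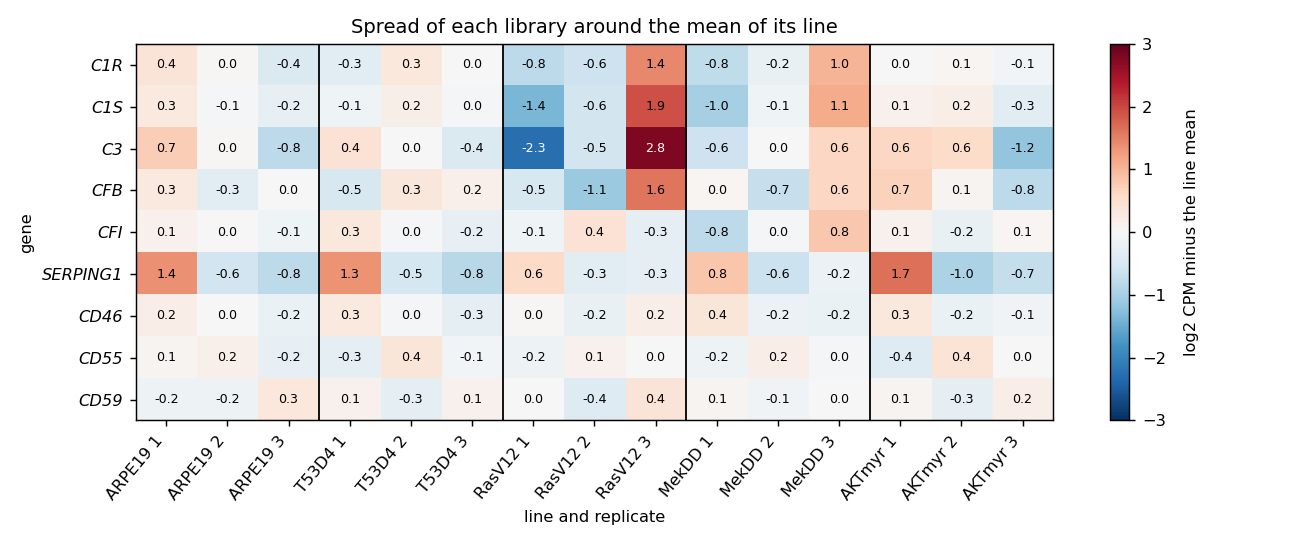
Log2 CPM of each library minus the mean of its line (colour and printed value) for each gene (rows) and each library (columns). RasV12 replicate 3 is 2.8 above its line for C3 and 1.9 for C1S, and replicate 1 is above its line for SERPING1 in all 5 lines.

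Genes of the pathway outside the members were taken from a list of 53, of which 30 were in the table and 21 were tested. RasV12 had 3 called higher and 5 called lower than T53D4, where 10.8% of all tested genes were called higher and 13.6% lower. MekDD had 1 higher and 2 lower than T53D4, beside all-gene shares of 2.27% and 2.83%. AKTmyr had 4 higher and 1 lower than T53D4, beside all-gene shares of 9.91% and 10.2%. The list's median log2 difference was -0.48, 0.04 and 0.59 in these comparisons, beside 0.01, 0.00 and -0.01 for all tested genes. Against AKTmyr, 4 were higher and 11 lower in RasV12 (median -1.36) and 1 higher and 7 lower in MekDD (median -0.91), where the median of all genes was 0.01 in both. The shares of all genes called higher and lower were 19.6% and 20.7% in RasV12 and 12.7% and 13.5% in MekDD. RasV12 against MekDD had 3 higher and 2 lower, with 7.17% and 8.33% of all genes. Against ARPE19, there were 3 higher and 7 lower in RasV12, 1 and 4 in MekDD, 2 and 2 in AKTmyr, and 0 and 2 in T53D4. The shares of all genes were 14.4% and 16.2% in RasV12 and 4.61% and 6.27% in MekDD. They were 7.98% and 8.86% in AKTmyr and 0.0368% and 0.118% in T53D4.

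CFD, factor D, the protease that cleaves factor B, was at 0.135 ± 0.0872 CPM (SD, n = 3) in RasV12. That was lower than in MekDD, which had 1.85 ± 0.421 (-3.69, SE 0.55, adjusted p = 0.00049), and than in ARPE19, which had 2.03 ± 1.29 (-3.83, SE 0.55, adjusted p = 0.000184). C4BPB, a chain of the C4b-binding protein, was at 2.87 ± 0.828 CPM in T53D4 and lower in all 3 lines with an oncogene, by -6.29 in RasV12, -4.58 in MekDD and -3.12 in AKTmyr (SE 0.82, 0.69 and 0.60, adjusted p = 8.82e-05, 0.00101 and 0.00339).

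AKTmyr had more MASP1, a protease of the lectin pathway, than T53D4, at 2.54, 1.01 and 0.375 CPM against 0.0685, 0.0651 and 0.0952 (4.10, SE 0.83). Outside AKTmyr no library was above 0.176 CPM, so MASP1 passed the filter on low counts through AKTmyr alone. Like those of CFI, its differences from AKTmyr are a description and support nothing. C4A, a form of component C4, was at 1.30, 2.53 and 2.71 CPM in AKTmyr and 0.274, 0.390 and 1.00 in T53D4 (2.03, SE 0.52, adjusted p = 0.0148), but C4A and C4B are nearly identical copies and reads between them are uncertain. CSMD2, a membrane protein with complement control repeats, was at 5.88, 3.97 and 9.23 CPM in RasV12 and 0.240, 0.130 and 0.238 in T53D4 (5.0, SE 0.47, adjusted p = 6.13e-06). It was also higher in MekDD than in T53D4 (3.25, SE 0.46, adjusted p = 0.000671), and lower in T53D4 than in ARPE19 (-2.61, SE 0.47, adjusted p = 0.0477). RasV12 differed from AKTmyr by 6.04 in CSMD2 (adjusted p = 1.7e-06) and -3.2 in C4A (0.000588). For MASP1 the value was -4.80, again a description only. CSMD3, a related gene, fell beside it between ARPE19 and T53D4 (-2.81, SE 0.49, adjusted p = 0.0455). CSMD1 was lower in RasV12 than in T53D4 (-5.50, SE 1.76, adjusted p = 0.0351) from a T53D4 level of 1.67 ± 2.41 CPM, whose SD exceeds its mean.

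The complement receptor chains were low. ITGAX, a chain of complement receptor 4, was at 1.2, 1.96 and 6.44 CPM in RasV12 and 0.499, 0.661 and 1.31 in MekDD (1.97, SE 0.62, adjusted p = 0.0467). Those libraries overlapped, and RasV12 replicate 3 was again the highest. No fit without that library is given for this gene. ITGAM, a chain of complement receptor 3, was at 1.44 ± 1.23 CPM in ARPE19 and lower in RasV12 (-6.61, SE 1.40, adjusted p = 0.00289) and MekDD (-4.67, SE 1.12, adjusted p = 0.0175). COLEC12, a collectin, was at 14.5 ± 13.9 CPM in AKTmyr and 3.33 ± 2.16 in ARPE19 (2.12, SE 0.68, adjusted p = 0.0461).

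**Figure D4:**
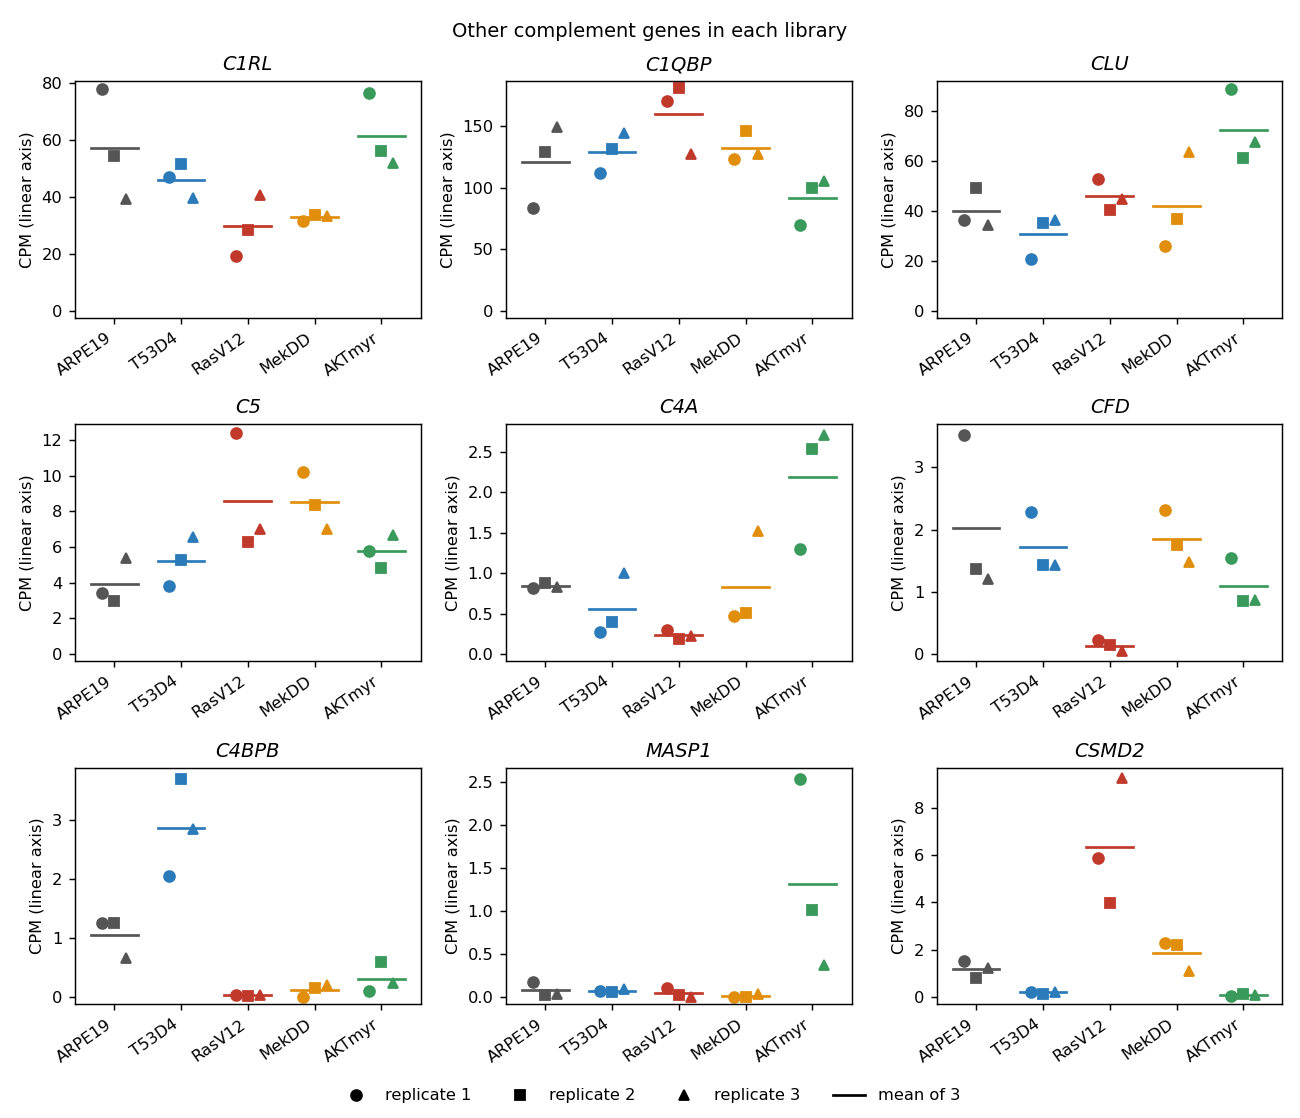
CPM on a linear axis for 9 further complement genes in each library, grouped by line (x axis); symbols mark the replicate and the bar is the mean of 3. C4BPB is highest in T53D4, at 2.05 to 3.71 CPM, and MASP1 is above 0.3 CPM only in AKTmyr.

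Complement genes are known targets of interferon signalling through STAT factors and of NF-kB and C/EBP factors. Of 23 tested genes on the interferon and STAT list, RasV12 had 4 called higher and 4 lower than T53D4, and MekDD had 2 lower and none higher. AKTmyr had none called by edgeR, with 4 at an unadjusted p under 0.05, which 34.2% of all genes had. The list's median log2 differences were -0.01, -0.11 and 0.17, beside 0.01, 0.00 and -0.01 for all tested genes. MX1, an interferon-induced antiviral GTPase, was lower in RasV12 (-1.76, SE 0.30, adjusted p = 0.000707) and in MekDD (-1.26, SE 0.29, adjusted p = 0.0205), and GBP1, another such GTPase, was lower in RasV12 (-1.32, SE 0.25, adjusted p = 0.00181). Of 21 tested genes on the NF-kB, C/EBP and acute phase list, RasV12 had 5 higher and none lower than T53D4, MekDD had 1 higher and none lower, and AKTmyr had 2 each way, with medians of 0.07, -0.25 and -0.06. The shares of all genes called in these comparisons are those given above. At an unadjusted p under 0.05 that list had 6, 3 and 4 genes, where 35.9%, 17.5% and 34.2% of all genes had such a p. IL1B was at 64.8, 109 and 535 CPM in RasV12 against 0.890, 0.412 and 0.333 in T53D4 (8.75, SE 0.91, adjusted p = 1.36e-05), and IL1A rose with it (3.73, SE 0.60, adjusted p = 0.000463). IL1R1, the interleukin-1 receptor, was higher in AKTmyr than in T53D4 (1.25, SE 0.27, adjusted p = 0.00609), and NFKB1 was lower (-0.90, SE 0.25, adjusted p = 0.0221).

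Likeness to each member was measured as Pearson's r of log2 CPM over the 15 libraries, among 11124 tested genes with at least 5 CPM in a line. These values describe libraries that share lines and depth. The genes most like SERPING1 were EFNB3, an ephrin (0.988), and TGFB2, a TGF-beta ligand (0.97), and TGFB2 was at 103 CPM in RasV12 and 938 in T53D4. The genes most like CD59 were CD44, the hyaluronan receptor, and TFPI2, a protease inhibitor (both 0.948), at 1250 and 488 CPM in RasV12 and 378 and 56.3 in T53D4. For C1R they were BAMBI (0.968) and CA11 (0.962), for C1S NUAK2 (0.971) and DOK4 (0.954), and for C3 SGSH (0.935) and NEO1 (0.928). For CD46 they were CTBS (0.914) and DSE (0.908), and for CFI ZKSCAN3 (0.908) and CLEC19A (0.903). The values were lowest for CD55, with PKIG (0.845) and STK24 (0.839), and for CFB, with ARMCX3 (0.826).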

How the data were processed

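The authors deposited raw read counts per gene for 15 libraries, which were used as deposited; all library columns matched a label. The genome build was hg38, per the submitters' processing notes, which list featureCounts 1.6.4, HISAT2 2.1.0 and fastp 0.20.0, with DESeq2 1.28.1, SAMtools 1.9 and deepTools 3.2.0; settings and the use of strand are not given in the sources used here. The smallest row total was 10 reads. The deposited normalised and log-scale tables were not used. Libraries were grouped by their labels, 3 in each of 5 lines.

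The 7 construct rows were left out. Genes were filtered with filterByExpr (minimum count 10) and tested with edgeR 4.0.16 (R 4.3.3; TMM, quasi-likelihood, line as the factor, all 15 libraries), with Benjamini-Hochberg adjustment over 13599 genes and calls under 0.05. The same steps were tested on simulated data. SE is the log2 fold change divided by the square root of F. CPM used TMM-scaled library sizes, log2 CPM a prior count of 2, and RPKM the union of exons in the deposited annotation. Depth was 20.63 to 46.55 M reads, so members with few reads (CFB, CFI) are the least precise, and reads are not independent molecules. Alternatives were DESeq2 size factors, library size alone, no filter, DESeq2 1.42.0, the 2 lines alone, a replicate block, construct rows kept, and leaving out each library.

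Named were all members, the 3 called other complement genes with the largest change per comparison (at least 1 CPM in the higher line), the 2 largest per inducer list and comparison, and the 2 genes most like each member; of the inducer genes, those of the comparisons with T53D4 are given. Some genes that this rule selects are not reported here. Several genes with 1 library apart (NFKBIZ, TNFAIP3, GBP2, COL1A1, C1RL) were named after their values were seen. The members and lists were chosen with earlier results of these data known.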

Additional observations from a re-analysis of the deposited data

How the results depend on the processing

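Of 23 called member results, CFI left aside, 13 kept their call under all alternatives and 10 lost it under at least 1. None of them reversed. The counts of members below include CFI. The reversals below are all in differences that did not pass with all libraries, and the cause was not tested. Keeping the construct rows changed no call. RasV12 against T53D4 in C3 turned from -0.006 to 0.003 with DESeq2 size factors and 0.006 with DESeq2. With library size alone, MekDD against AKTmyr was 0.015 in CD46 and 0.043 in CD55, and MekDD against ARPE19 was 0.059 in CD55, which was 0.008 with no filter.

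Number of members called, with that of all genes in brackets: DESeq2 gave 2 lower in MekDD against T53D4 (629) and 1 lower in AKTmyr against ARPE19 (1435). With the 2 lines alone there were 3 lower in RasV12 (1672) and 1 lower in MekDD (350) against T53D4. AKTmyr against T53D4 had 2 higher (788) and 0 lower (661). RasV12 against MekDD had 1 higher (889), and MekDD against ARPE19 had 2 lower (634). CFI could not be tested there in the 6 comparisons without AKTmyr.

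The replicate numbers do not pair the libraries by the labels. Libraries of the same number in different lines had deviations correlated at 0.01 to 0.722 over 30 pairs, 28 of them above 0.1, and all 15 libraries correlated best with their own number, a hint from the data and not the design. With the replicate block, members called became 1 higher in T53D4 against ARPE19 (CD55, 0.653, adjusted p = 0.0335), 1 lower in MekDD and 3 lower in AKTmyr against T53D4, and 4 lower in MekDD and 2 lower in AKTmyr against ARPE19; CD55 in AKTmyr against ARPE19 turned to -0.011. Among these, SERPING1 became lower in AKTmyr (-2.22, adjusted p = 5.06e-05) and MekDD (-1.60, 0.000688) than in ARPE19, and in AKTmyr than in T53D4 (-1.30, 0.00154). Over all genes, the block moved T53D4 against ARPE19 from 5 higher and 16 lower to 101 and 131 (79 and 113 in DESeq2, 1 and 1 with the 2 lines alone), and raised MekDD against T53D4 from 309 and 385 to 746 and 843 (498 and 629 in DESeq2). It raised the number of all genes called lower in AKTmyr against T53D4 from 1391 to 2434. Against ARPE19 that number rose from 852 to 1613 in MekDD and from 1205 to 2067 in AKTmyr.

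Leaving out 1 library at a time gave 1 to 2 members higher in RasV12 against T53D4, 0 to 1 lower in MekDD and in AKTmyr against T53D4, 1 to 2 higher and 1 to 4 lower in RasV12 against MekDD, 0 to 1 higher and 0 to 4 lower in MekDD against AKTmyr, 0 to 3 lower in MekDD against ARPE19, and 0 to 1 higher and 0 to 1 lower in AKTmyr against ARPE19. In these comparisons and directions the number of all genes called mostly fell in the same fits. It rose only without AKTmyr replicate 3 for MekDD against AKTmyr and without ARPE19 replicate 3 for MekDD against ARPE19. Without RasV12 replicate 3, genes called higher in RasV12 against T53D4 fell from 1466 to 1260. Against MekDD they fell from 975 to 742, and those called lower from 1133 to 851. With 2 libraries left in a line, its spread is pooled over all lines. Directions that turned in at least 1 such fit had these ranges. T53D4 against ARPE19 ran from -0.261 to 0.132 in C1R, -0.147 to 0.297 in CFB and -1.952 to 0.088 in SERPING1. RasV12 against T53D4 ran from -2.557 to 0.543 in C3 and -1.669 to 0.324 in CFB, MekDD against T53D4 from -1.427 to 0.121 in SERPING1, and AKTmyr against T53D4 from -0.205 to 0.438 in C3. RasV12 against MekDD ran from -2.087 to 0.251 in C1S, RasV12 against AKTmyr from -2.606 to 0.498 in C3, and RasV12 against ARPE19 from -1.593 to 0.4 in CFB. MekDD against AKTmyr ran from -0.28 to 1.601 in SERPING1, -0.245 to 0.114 in CD46 and -0.21 to 0.203 in CD55. MekDD against ARPE19 ran from -0.009 to 0.879 in CFI, -0.174 to 0.134 in CD46 and -0.115 to 0.072 in CD55, and AKTmyr against ARPE19 from -0.095 to 0.17 in CD46 and -0.207 to 0.192 in CD55. At 2 to 14 reads outside AKTmyr, depth limits what can be said of CFI.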
